A study of Homo sapiens with 14 samples.

Results

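The genes described here are 51 enzymes and receptors of drug metabolism in liver, taken by name from the 56479 genes of the deposited count table. They are 22 cytochrome P450 enzymes, 7 glucuronosyltransferases, 5 sulfotransferases, 6 alcohol dehydrogenases, 2 flavin monooxygenases, 3 acetyl- or methyltransferases, 2 carboxylesterases, the aldehyde oxidase AOX1, the P450 reductase POR, and the xenobiotic receptors NR1I2 (PXR) and NR1I3 (CAR). No threshold on a measured value entered the rule. In hepatocytes, cytochrome P450 enzymes oxidise drugs with electrons supplied by POR, and other enzymes oxidise, reduce or hydrolyse them. Transferases then attach glucuronic acid, sulfate, acetyl or methyl groups, which makes most products easier to excrete. PXR and CAR bind or sense foreign compounds, pair with the retinoid X receptor RXRA, and switch on genes such as CYP3A4, CYP2B6 and UGT1A1.

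RNA from 2 established human liver cancer lines was sequenced, in 7 groups of 2 libraries. HepG2, which the labels call hepatoblastoma, was kept on dishes, for 5 days, either in 4% PEG 300 (polyethylene glycol, an osmotic compressor) or in isotonic medium. On transwell membranes, HepG2 was compressed under a weight or left uncompressed, and Hep3B was compressed under a weight, compressed in 3% PEG or left uncompressed. All groups carry the genotype label WT. The sources used here give neither the mass of the weight nor how long cells stayed on transwells. The 4% and 3% PEG comparisons differ in line, surface and dose, and possibly in time and sequencing instrument, so these cannot be told apart between them. The labels call the libraries biological replicates without describing separate cultures, so p-values measure the spread between these samples.

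Libraries held 21161950 to 35394448 counts, and levels are given as CPM, the depth-scaled count with TMM factors. Replicates on dishes stood much further apart than on transwells: the biological coefficient of variation was 0.290 in 4% PEG and 0.320 in isotonic medium, against 0.0459 to 0.0705 in the 5 transwell groups. The difference between the 2 dish replicates moved with the GC content of the genes (Spearman 0.652 in 4% PEG and 0.642 in isotonic medium, across genes). All 11 hepatocyte markers checked reached 1 CPM in every group. In bulk samples, fewer cells of a type and less RNA per cell cannot be told apart.

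Promoters are shown first for the CYP3A family, whose 3 members are close relatives in 1 cluster and include the best known target of PXR. CYP3A5, CYP3A7 and CYP3A4 lie in this order within 136 kb of chromosome 7 (chr7:99648194-99784265 in GRCh38), all on the minus strand. The stretches below are 108 bases of RefSeq sequence (GRCh38.p14), written 5′ to 3′ along each gene's own strand. Capitals mark an everted repeat with 6 bases between its arms (ER6), the kind of element through which PXR is known to act on CYP3A4, or the 18 bases at the same place in CYP3A7.
CYP3A4, chr7:99784291-99784398: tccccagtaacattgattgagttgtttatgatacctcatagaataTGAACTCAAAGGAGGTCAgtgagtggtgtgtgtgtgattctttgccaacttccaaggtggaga
CYP3A5, chr7:99680047-99680154: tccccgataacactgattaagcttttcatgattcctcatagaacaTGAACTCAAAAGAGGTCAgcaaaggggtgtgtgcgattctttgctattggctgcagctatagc
CYP3A7, chr7:99735302-99735409: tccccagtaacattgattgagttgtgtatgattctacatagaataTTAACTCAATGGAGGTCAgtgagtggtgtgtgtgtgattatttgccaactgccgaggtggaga

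The spelling TGAACT, any 6 bases, AGGTCA, searched on both strands in the 250 bases before each gene's start, occurred in 3 of 35116 RefSeq promoters (0.00854%). These were CYP3A4 (-169 to -152 from the start), CYP3A5 (-113 to -96) and ITGB1BP2, a gene outside the set. Of the 51 genes, 40 had a promoter in the table. CYP3A7 does not carry this spelling. Counted from 1 at the 5′ end of the 18 bases, CYP3A7 differs from CYP3A4 by G2T and A10T, and CYP3A5 differs from CYP3A4 by G11A. The single arm AGGTCA, which overlaps the ER6 matches, occurred in 11 of the 40 genes (27.5%, counted by gene). It occurred in 12.1% of all promoters, counted by promoter, so the 2 shares have unlike units. These letters describe the windows and do not show that a factor binds there.

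Of the 51 genes, 47 passed the filter on low counts. CYP2C18 and the well-known drug oxidases of adult liver CYP2C8, CYP2C19 and CYP2E1 did not, with 1 to 36 counts over all 14 libraries. Under 4% PEG in HepG2, 12 of the 47 rose and 11 fell (48.9% in all), against 19.3% of all genes tested (10.2% higher and 9.05% lower). Under the weight in HepG2, 9 rose and 13 fell (46.8%), against 37% of all genes (16.9% higher, 20% lower). Under the weight in Hep3B, 5 rose and 5 fell (21.3%), against 15.2% (6.87% higher, 8.36% lower). Under 3% PEG in Hep3B, 19 rose and 13 fell (68.1%), against 49.8% (23.9% higher, 26% lower). A change was called where the quasi-likelihood test of edgeR gave a Benjamini-Hochberg adjusted p under 0.05, over all 19232 genes tested.

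In the main fits, members were called in both directions in each comparison, and the share called was above that of all genes in each. Under the weight in Hep3B this rested on 10 members. With all 14 libraries in 1 fit, 1 member was called there, against 203 of all genes. The members were chosen with earlier results of these data known, and their shares were not tested against those of all genes. Their median log2 fold change was 0.51 under 4% PEG, -0.08 under the weight in HepG2, 0 under the weight in Hep3B and 0.28 under 3% PEG, while that of all genes tested lay between -0.01 and 0.01. Scaling by total counts alone moved the median of all genes under 4% PEG to 0.36 and the split to 16 higher and 8 lower members, against 12 and 11, and no named call changed sign. Of the called members, 2 under 4% PEG, 1 under the weight in HepG2, 2 under the weight in Hep3B and 8 under 3% PEG stayed below 1 CPM in both groups, and they are described only by their counts or levels.

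**Figure D1:**
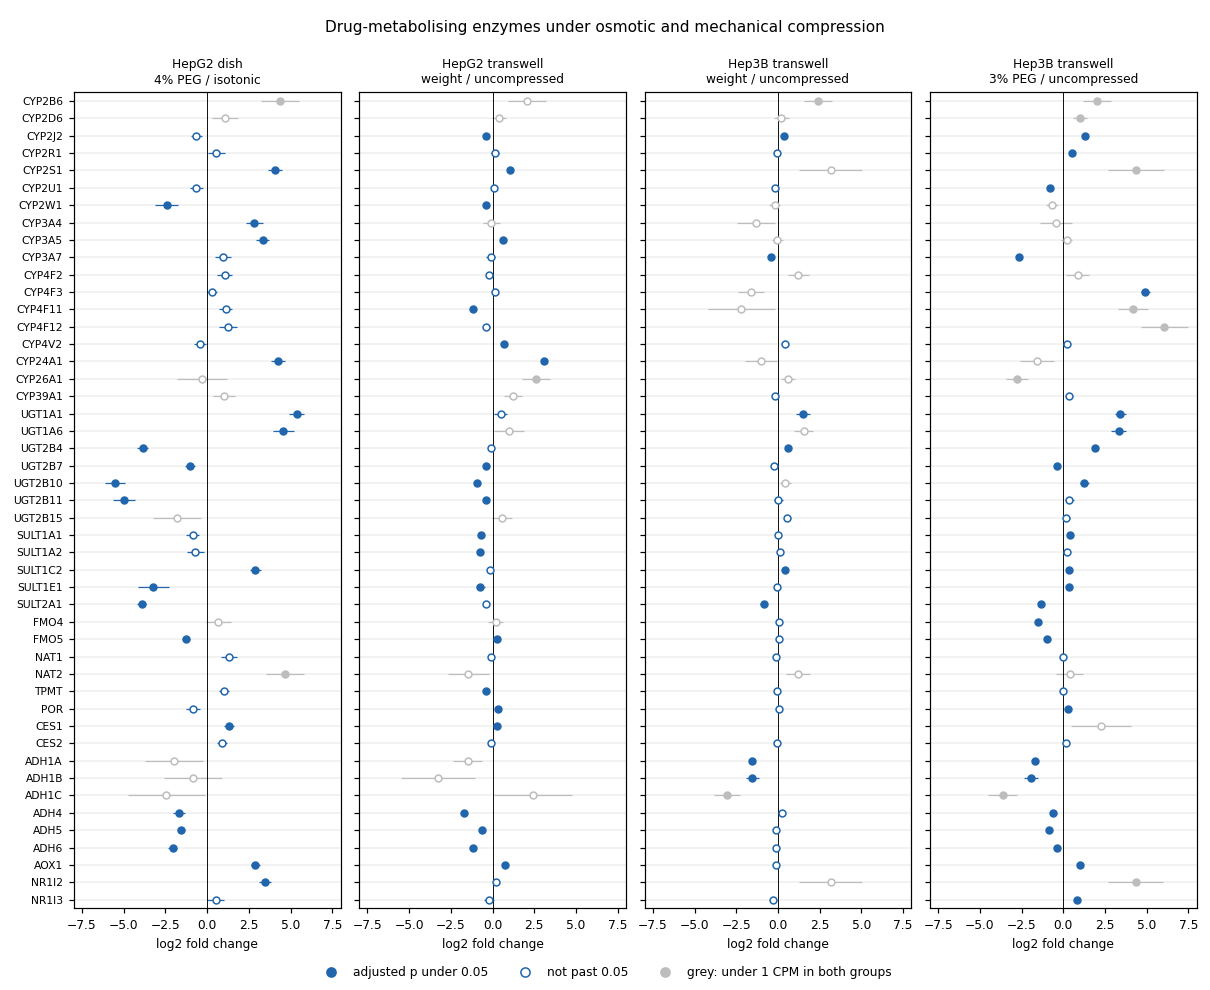
Log2 fold change with its standard error (horizontal bar) for the 47 tested genes, by role from top to bottom, in the 4 compression comparisons. Filled points passed an adjusted p of 0.05 and grey points stayed below 1 CPM in both groups; genes without a count in both groups are not drawn. Among genes above 1 CPM the widest called changes stand in the 4% PEG panel (UGT1A1 at 5.37, UGT2B10 at -5.55), and the weight panels hold most points close to 0.

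The xenobiotic receptor NR1I2 rose strongly under 4% PEG in HepG2 and was nearly silent in Hep3B. NR1I2 (chr3:119780484-119818485) stood at 55.7 and 66.1 CPM in the 4% PEG libraries, against 4.52 and 6.61 CPM in isotonic medium. Both 4% PEG libraries lay far above both isotonic ones, a log2 fold change of 3.45 ± 0.36 (SE, adjusted p = 0.00127). On transwells it stood at 10.7 and 8.31 CPM under the weight, against 8.20 and 8.06 CPM in uncompressed HepG2, and the difference did not pass the test (log2 0.23 ± 0.17, adjusted p = 0.306). In Hep3B it held 5 counts in the 3% PEG libraries, 2 in the weight libraries and none in the uncompressed ones, where 3 counts would be 0.0525 CPM. The 5 counts under 3% PEG are 1.79-fold above a floor of 3 counts uncompressed, a value that leaves out the counting error of the 5. The call of a rise there was lost without either 3% PEG library or either uncompressed library. It was also lost with only the 4 libraries compared in the fit (adjusted p = 0.0695).

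NR1I3, the constitutive androstane receptor, followed another pattern. It rose under 3% PEG in Hep3B, at 8.01 and 8.61 CPM, against 4.36 and 5.05 CPM uncompressed, without overlap of the libraries (log2 0.82 ± 0.16, adjusted p = 4.99e-05). In Hep3B under the weight it stood at 3.53 and 4.10 CPM (log2 -0.30, adjusted p = 0.289). In HepG2 it was lower in level and not called, with 1.30 and 2.69 CPM in 4% PEG, against 1.38 and 1.41 CPM in isotonic medium, and 0.995 and 1.59 CPM under the weight, against 1.52 and 1.45 CPM uncompressed. Part of its exons overlaps TOMM40L on the other strand, and the sources used here do not say whether counting used strand.

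The 3 CYP3A enzymes differ in where they were detected and called. CYP3A4, the main drug-oxidising P450 of adult liver, had 2.13 and 2.18 CPM in 4% PEG, against 0.353 and 0.235 CPM in isotonic medium. It rose there by 2.83 ± 0.51 on the log2 scale (adjusted p = 0.0089) and stayed below 1 CPM in every transwell group. CYP3A5, the other adult form, had 35.8 and 25.0 CPM in 4% PEG, against 2.93 and 3.14 CPM in isotonic medium, a log2 fold change of 3.32 ± 0.39 (adjusted p = 0.00184). CYP3A5 also rose under the weight in HepG2, where its level was 6.72 and 7.14 CPM, against 4.73 and 4.26 CPM uncompressed (log2 0.62 ± 0.18, adjusted p = 0.00649, and 0.088 without uncompressed replicate 2). In both comparisons the libraries of the groups did not overlap.

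CYP3A7, the fetal liver form, fell in both compressions of Hep3B. It stood at 2.21 and 2.54 CPM under 3% PEG, against 15.6 and 14.7 CPM uncompressed, with both 3% PEG libraries far below (log2 -2.66 ± 0.16, adjusted p = 4.67e-16). Under the weight in Hep3B it stood at 12.4 and 9.95 CPM, lower in both libraries than in either uncompressed one (log2 -0.43 ± 0.13, adjusted p = 0.0199). That smaller fall was lost without weight replicate 2 (adjusted p = 0.326) and without either uncompressed library (0.167 and 0.0748), and by DESeq2 (0.135). In HepG2, CYP3A7 had 2.57 and 1.63 CPM in 4% PEG, against 1.24 and 0.891 CPM in isotonic medium, which did not pass the test (log2 0.97 ± 0.48, adjusted p = 0.196), in the same direction as CYP3A4 and CYP3A5. Differences between the CYP3A genes were not tested. CYP3A7 shares 39.6% of its exon bases with the read-through gene CYP3A7-CYP3A51P, so its counts are uncertain.

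**Figure D2:**
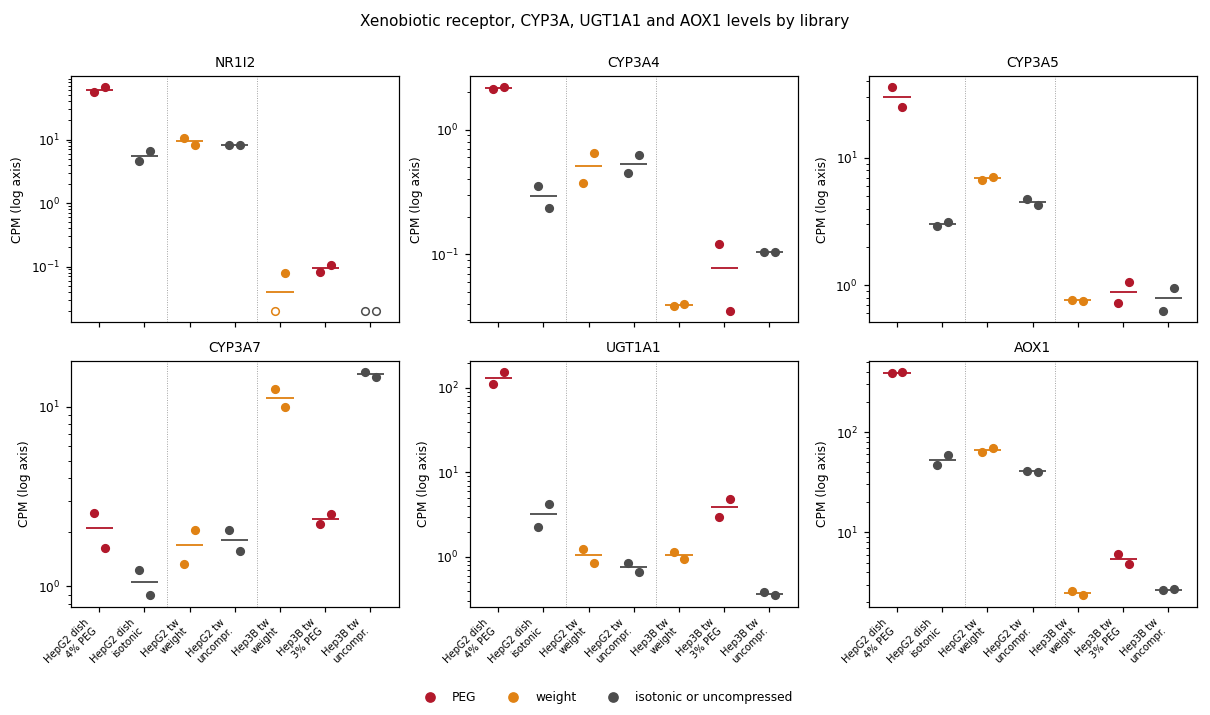
CPM on log axes in each of the 14 libraries (points) with the group mean (line) for NR1I2, the 3 CYP3A genes, UGT1A1 and AOX1; open points at the bottom mark libraries below 0.02 CPM, and dotted lines separate HepG2 on dishes, HepG2 on transwells and Hep3B on transwells (tw). NR1I2, CYP3A4, CYP3A5, UGT1A1 and AOX1 stand highest in the 2 libraries of 4% PEG, while CYP3A7 stands highest in uncompressed Hep3B at 14.7 and 15.6 CPM.

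CYP2S1 rose under both kinds of compression in HepG2. CYP2S1, a P450 expressed mainly outside the liver, had 93.7 and 167 CPM in 4% PEG, against 6.57 and 9.05 CPM in isotonic medium (log2 4.06 ± 0.40, adjusted p = 0.00109). It had 8.75 and 11.6 CPM under the weight in HepG2, against 4.86 and 4.96 CPM uncompressed (log2 1.04 ± 0.18, adjusted p = 1.81e-05). In both comparisons the libraries of the groups did not overlap. In Hep3B it held 2 counts under the weight, 5 under 3% PEG and none uncompressed.

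CYP2J2, an epoxygenase of arachidonic acid, moved in opposite directions in the 2 lines. It had 12.8 and 13.8 CPM under the weight in HepG2, against 16.8 and 17.4 CPM uncompressed, a fall (log2 -0.37 ± 0.10, adjusted p = 0.00323). In Hep3B it had 10.3 and 10.9 CPM under the weight and 19.8 and 20.4 CPM under 3% PEG, against 8.17 and 8.41 CPM uncompressed. Both Hep3B treatments lay above all uncompressed libraries, with a log2 fold change of 0.36 ± 0.11 for the weight (adjusted p = 0.02, and 0.0851 to 0.146 without weight replicate 2 or either uncompressed library, 0.0683 by DESeq2) and 1.28 ± 0.10 for 3% PEG (adjusted p = 3.2e-13). Under 4% PEG it was not called (log2 -0.66, adjusted p = 0.215).

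CYP2W1, a P450 known from tumours and fetal gut, had 2.38 and 5.37 CPM in 4% PEG, against 9.11 and 32.4 CPM in isotonic medium, where the isotonic replicates themselves differed widely (log2 -2.42 ± 0.68, adjusted p = 0.0438, and 0.153 without isotonic replicate 2, 0.0704 with total counts alone). It had 17.2 and 19.0 CPM under the weight in HepG2, against 22.6 and 25.3 CPM uncompressed (log2 -0.41, adjusted p = 0.003). That call under the weight was lost without uncompressed replicate 2 or weight replicate 1, and by DESeq2. CYP2R1, which hydroxylates vitamin D in the liver, had 24.2 and 24.2 CPM under 3% PEG, against 15.7 and 17.9 CPM in uncompressed Hep3B (log2 0.52, adjusted p = 2.31e-05). CYP2U1, a fatty acid hydroxylase, went the other way, with 6.76 and 5.43 CPM under 3% PEG, against 10.1 and 10.9 CPM uncompressed (log2 -0.79, adjusted p = 2.97e-06). CYP2B6, the best known CAR target, stayed at or below 0.714 CPM in every library. It was called higher under 4% PEG (31 counts, against 1 in isotonic medium) and in Hep3B under the weight (0.307 and 0.478 CPM) and 3% PEG (0.121 and 0.459 CPM), against 0.105 and 0.0351 CPM uncompressed. The call on dishes was lost without 4% PEG replicate 2 or isotonic replicate 1. In Hep3B both calls were lost without either uncompressed library, and also without weight replicate 2 for the weight and 3% PEG replicate 2 for 3% PEG. The call under 3% PEG was lost with no low-count filter and with a replicate block too. DESeq2 called CYP2B6 in none of these comparisons. CYP2D6, which oxidises many basic drugs, stayed at or below 1.09 CPM and was called higher under 3% PEG (0.725 and 1.09 CPM, against 0.419 and 0.491 CPM uncompressed). That call was lost with no low-count filter, by DESeq2, and without 3% PEG replicate 2 or either uncompressed library.

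The CYP4F enzymes, which hydroxylate fatty acids and leukotrienes at their far end, sit together in 294 kb of chromosome 19 (chr19:15640897-15934867). CYP4F3, a leukotriene B4 hydroxylase, had 6.32 and 5.58 CPM under 3% PEG and 0.0768 and 0.0398 CPM under the weight, against 0.244 and 0.140 CPM in uncompressed Hep3B. Within Hep3B it stood out in the 3% PEG libraries alone, and the rise over uncompressed cells was 4.91 ± 0.26 on the log2 scale (adjusted p = 1.45e-17). The HepG2 libraries all held more CYP4F3, at 22.8 to 46.8 CPM. Its neighbours CYP4F12 (17 counts under 3% PEG, 0 uncompressed) and CYP4F11 (21 counts under 3% PEG, 1 uncompressed) were also called higher, at levels below 1 CPM. CYP4F11 fell under the weight in HepG2, with 5.72 and 6.72 CPM, against 13.8 and 14 CPM uncompressed (log2 -1.16 ± 0.16, adjusted p = 5.11e-07). CYP4F2, which hydroxylates vitamin K, was not called in any compression, with at most 22.8 CPM in 4% PEG and 12.7 CPM in isotonic medium. CYP4V2, a fatty acid hydroxylase on another chromosome, had 18.0 and 15.6 CPM under the weight in HepG2, against 10.7 and 10.6 CPM uncompressed (log2 0.66, adjusted p = 0.0133, and 0.0736 to 0.0981 without weight replicate 1 or either uncompressed library). None of the 5 family 4 enzymes was called by the main edgeR fit under 4% PEG, where 1 had an unadjusted p under 0.05. DESeq2 called CYP4F11 higher. With edgeR, CYP4F11 and CYP4F12 were called with no low-count filter, and all 5 with a replicate block.

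CYP24A1, the enzyme that inactivates active vitamin D, rose under both kinds of compression in HepG2. It had 72.4 and 72.5 CPM under the weight, against 9.05 and 8.35 CPM in uncompressed HepG2 on transwells, with replicates close together (log2 3.06 ± 0.11, adjusted p = 1.1e-19). It had 92.5 and 79.1 CPM under 4% PEG, against 5.86 and 3.05 CPM in isotonic medium (log2 4.26 ± 0.41, adjusted p = 0.00102). The compressed HepG2 libraries thus reached 72.4 to 92.5 CPM on both surfaces, and those of the controls 3.05 to 9.05 CPM. In Hep3B it held only 3 counts under the weight, 2 under 3% PEG and 7 uncompressed. CYP26A1, which degrades retinoic acid, and CYP39A1, an oxysterol hydroxylase, were low in HepG2 (at most 0.560 and 0.497 CPM). CYP26A1 was called higher under the weight in HepG2 (19 counts, against 3 uncompressed) (a call lost without weight replicate 2 or uncompressed replicate 2) and lower under 3% PEG in Hep3B (0 and 0.176 CPM, against 0.524 and 0.806 CPM uncompressed). CYP39A1 had 5.02 to 7.57 CPM in Hep3B and was not called in either Hep3B compression.

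Of the 7 glucuronosyltransferases, which attach glucuronic acid, 2 rose and 4 fell under 4% PEG, 3 fell under the weight in HepG2, 2 rose under the weight in Hep3B, and 4 rose and 1 fell under 3% PEG. Of all genes tested, 10.2% were higher and 9.05% lower under 4% PEG, 20% lower under the weight in HepG2, 6.87% higher under the weight in Hep3B, and 23.9% higher and 26% lower under 3% PEG. The 2 enzymes of the UGT1A locus were among those that rose in both PEG comparisons. UGT1A1, the enzyme that conjugates bilirubin, had 111 and 155 CPM under 4% PEG, against 2.26 and 4.22 CPM in isotonic medium. The log2 fold change was 5.37 ± 0.43 (adjusted p = 0.00064), or 41.2-fold, the largest called rise of the set in this comparison. In Hep3B it had 1.15 and 0.956 CPM under the weight and 2.98 and 4.90 CPM under 3% PEG, against 0.384 and 0.351 CPM uncompressed. The 3 Hep3B groups did not overlap, and both rises were called, by 1.51 ± 0.41 under the weight (adjusted p = 0.00827) and 3.42 ± 0.32 under 3% PEG (adjusted p = 4.13e-11). The call for the weight was lost without weight replicate 1 (adjusted p = 0.0642) or uncompressed replicate 2 (0.0728). In HepG2 under the weight it had 1.24 and 0.840 CPM, against 0.847 and 0.661 CPM uncompressed, and was not called (log2 0.48 ± 0.37, adjusted p = 0.348).

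UGT1A6, which conjugates small phenols, moved with it at lower levels. It had 1.97 and 2.04 CPM under 4% PEG, against 0.106 and 0.0469 CPM in isotonic medium (log2 4.57 ± 0.62, adjusted p = 0.00308). It had 2.25 and 1.69 CPM under 3% PEG, against 0.175 and 0.210 CPM in uncompressed Hep3B (log2 3.32 ± 0.45, adjusted p = 9.76e-08). UGT1A1 and UGT1A6 (chr2:233691607-233773300) are built from shared last exons, 1649 bases or 36.9% of the exon bases of UGT1A1, so how the counting split their reads is uncertain.

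The UGT2B enzymes, in 879 kb of chromosome 4 (chr4:68646630-69526014), were mostly called lower in HepG2, while UGT2B4 was called higher in Hep3B. UGT2B10, which conjugates amines such as nicotine, had 8.09 and 2.28 CPM under 4% PEG, against 232 and 254 CPM in isotonic medium (log2 -5.55 ± 0.60, adjusted p = 0.00146). In HepG2 on transwells it had 116 and 127 CPM under the weight, against 235 and 228 CPM uncompressed (log2 -0.93 ± 0.07, adjusted p = 7.85e-13). Both 4% PEG libraries lay far below all other HepG2 libraries. In Hep3B it stayed near 1 CPM, with 1.53 and 0.953 CPM under 3% PEG, against 0.419 and 0.596 CPM uncompressed (log2 1.26 ± 0.29, adjusted p = 0.000431).

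UGT2B4, which conjugates bile acids and steroids, fell under 4% PEG in HepG2 and rose in both compressions of Hep3B. It had 7.71 and 5.47 CPM under 4% PEG, against 93.2 and 97.1 CPM in isotonic medium (log2 -3.85 ± 0.33, adjusted p = 0.000753). In Hep3B it had 86.8 and 79.2 CPM under the weight and 200.4 and 204 CPM under 3% PEG, against 54.8 and 54.3 CPM uncompressed. Each Hep3B group stood apart from the next, with rises of 0.61 ± 0.06 under the weight (adjusted p = 1.94e-09) and 1.89 ± 0.06 under 3% PEG (adjusted p = 4.26e-24). In HepG2 under the weight it was not called, at 47.6 and 49.0 CPM, against 51.5 and 50.8 CPM uncompressed (log2 -0.08, adjusted p = 0.332).

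UGT2B7, which conjugates morphine, fell modestly in 3 comparisons. It had 31.9 and 24.5 CPM under 4% PEG, against 54.2 and 60.7 CPM in isotonic medium (log2 -1.03, adjusted p = 0.0477), a call lost without any 1 of the 4 dish libraries (adjusted p from 0.0782 to 0.32) or with total counts alone (0.136) or RLE scaling (0.052). It had 45.6 and 45.8 CPM under the weight in HepG2, against 62.5 and 55.7 CPM uncompressed (log2 -0.37 ± 0.07, adjusted p = 0.000125). It had 17.7 and 16.0 CPM under 3% PEG, against 21.4 and 23.0 CPM in uncompressed Hep3B (log2 -0.40 ± 0.09, adjusted p = 0.00016). The groups did not overlap in any of the 3. UGT2B11, a close neighbour, had 0.698 and 0.170 CPM under 4% PEG, against 12.6 and 15.4 CPM in isotonic medium (log2 -4.99, adjusted p = 0.00284). Under the weight it had 10.8 and 13.1 CPM, against 17.2 and 14.3 CPM uncompressed (log2 -0.40, adjusted p = 0.0153, and 0.286 without uncompressed replicate 1 or 0.239 without weight replicate 1, 0.135 by DESeq2). UGT2B15, an androgen-conjugating enzyme, was not called in any compression. These enzymes are close paralogs, and reads could be split between them.

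Summed over the 7 glucuronosyltransferases, the level was 161 and 189 CPM under 4% PEG, against 394 and 432 CPM in isotonic medium, and 222 and 236 CPM under the weight, against 367 and 349.8 CPM in uncompressed HepG2. In Hep3B the sum was 115 and 104 CPM under the weight and 229 and 232 CPM under 3% PEG, against 81.0 and 82.1 CPM uncompressed. The sum was thus lower under both kinds of compression in HepG2 and higher under both in Hep3B, without overlap of libraries. Single genes made up much of it. UGT1A1, which rose, had 111 and 155 CPM under 4% PEG, and UGT2B10 had 232 and 254 CPM in isotonic medium. In Hep3B, UGT2B4 had 200.4 and 204 CPM under 3% PEG.

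**Figure D3:**
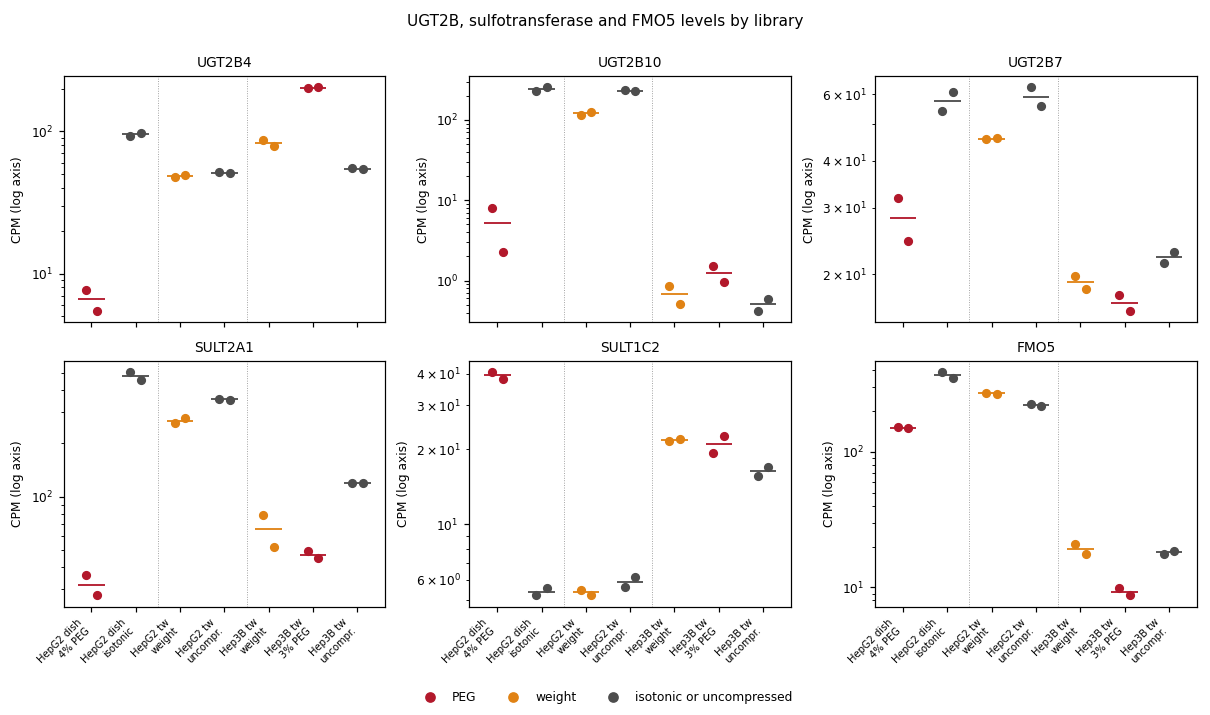
CPM on log axes in each library (points) with the group mean (line) for 3 UGT2B enzymes, 2 sulfotransferases and FMO5, grouped as HepG2 on dishes, HepG2 on transwells and Hep3B on transwells (tw). UGT2B4 stands lowest in 4% PEG (5.47 and 7.71 CPM) and highest in 3% PEG (200.4 and 204 CPM), and SULT2A1 is lowest in the 4% PEG libraries.

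SULT2A1, the sulfotransferase of dehydroepiandrosterone and bile acids, was lower under compression in all 4 comparisons and passed the test in 3. It had 36.0 and 27.7 CPM under 4% PEG, against 505 and 457 CPM in isotonic medium, a 15.1-fold fall (log2 -3.92 ± 0.28, adjusted p = 0.00055). In HepG2 on transwells it had 259.9 and 278 CPM under the weight, against 356 and 352 CPM uncompressed, and was not called (log2 -0.40 ± 0.18, adjusted p = 0.161), though a fit of only these 4 libraries called it lower. In Hep3B it had 79.3 and 52.1 CPM under the weight and 49.2 and 45 CPM under 3% PEG, against 120.1 and 119 CPM uncompressed. Every compressed library lay below every control library of its comparison. The weight libraries of Hep3B differed most from each other (log2 -0.86 ± 0.19, adjusted p = 0.0399, and 0.152 or 0.155 without 1 uncompressed library, 0.231 with only these 4 libraries in the fit), and the log2 fold change under 3% PEG was -1.34 ± 0.19 (adjusted p = 0.00228).

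SULT1C2, another cytosolic sulfotransferase, rose in 3 comparisons. It had 40.7 and 38.1 CPM under 4% PEG, against 5.19 and 5.54 CPM in isotonic medium (log2 2.88 ± 0.33, adjusted p = 0.00174). In Hep3B it had 21.5 and 21.9 CPM under the weight and 19.4 and 22.5 CPM under 3% PEG, against 15.7 and 17.0 CPM uncompressed. The Hep3B rises were small, 0.41 under the weight (adjusted p = 0.00211, and 0.0595 without uncompressed replicate 1) and 0.36 under 3% PEG (adjusted p = 0.00178, and 0.0905 without 3% PEG replicate 2).

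The phenol sulfotransferases SULT1A1 and SULT1A2 are near-identical copies whose reads cannot be told apart with certainty. SULT1A1 had 57.0 and 59.0 CPM under the weight in HepG2, against 91.1 and 93.9 CPM uncompressed (log2 -0.67 ± 0.07, adjusted p = 8.12e-10). SULT1A2 had 7.83 and 9.10 CPM, against 15.2 and 13.0 CPM (log2 -0.74 ± 0.13, adjusted p = 3.13e-05). Both fell without overlap of the libraries. Under 3% PEG, SULT1A1 rose in Hep3B, at 27.9 and 27.6 CPM, against 20.2 and 22.3 CPM uncompressed (log2 0.39 ± 0.08, adjusted p = 0.000107). SULT1E1, the estrogen sulfotransferase, had 0.222 and 0 CPM under 4% PEG, against 1.2 and 0.985 CPM in isotonic medium (log2 -3.22 ± 0.92, adjusted p = 0.0465, and 0.0967 without 4% PEG replicate 2, 0.0643 with total counts alone). It had 1.04 and 0.840 CPM under the weight in HepG2, against 1.56 and 1.61 CPM uncompressed (adjusted p = 0.0284), and 11.4 and 9.99 CPM under 3% PEG, against 8.62 and 8.52 CPM in uncompressed Hep3B (adjusted p = 0.0363). Of these 2 small changes, the first was lost without weight replicate 2 or either uncompressed library (0.0743 to 0.158), and the second without 3% PEG replicate 1 or either uncompressed library (0.113 to 0.28). DESeq2 called neither (0.0707 and 0.136).

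FMO5, a flavin monooxygenase that oxidises ketones in drugs, fell under both PEG treatments and rose slightly under the weight in HepG2. It had 152 and 150.4 CPM under 4% PEG, against 389 and 349 CPM in isotonic medium (log2 -1.29 ± 0.24, adjusted p = 0.00962, and 0.0531 without 4% PEG replicate 2). It had 9.86 and 8.72 CPM under 3% PEG, against 17.8 and 18.6 CPM in uncompressed Hep3B (log2 -0.97 ± 0.08, adjusted p = 5.24e-12). In HepG2 on transwells it had 273 and 269.8 CPM under the weight, against 227 and 219.8 CPM uncompressed (log2 0.28 ± 0.06, adjusted p = 0.000239). FMO4, a related enzyme seen mostly in Hep3B, had 2.29 and 2.43 CPM under 3% PEG, against 6.53 and 7.08 CPM uncompressed (log2 -1.52 ± 0.18, adjusted p = 9.78e-09).

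AOX1, the aldehyde oxidase that oxidises many nitrogen heterocycles, rose in 3 comparisons. AOX1 (chr2:200585868-200677064) had 385 and 397 CPM under 4% PEG, against 46.4 and 58.8 CPM in isotonic medium (log2 2.90 ± 0.26, adjusted p = 0.000846). It had 63.5 and 69.8 CPM under the weight in HepG2, against 41.0 and 40.0 CPM uncompressed (log2 0.72 ± 0.08, adjusted p = 1.95e-09). It had 6.08 and 4.87 CPM under 3% PEG and 2.57 and 2.35 CPM under the weight, against 2.65 and 2.70 CPM in uncompressed Hep3B. The 3% PEG libraries lay above the uncompressed ones (log2 1.02 ± 0.15, adjusted p = 2.91e-07), and the weight did not pass the test in Hep3B (log2 -0.12 ± 0.17, adjusted p = 0.734).

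CES1, the main carboxylesterase of liver, had 328 and 461 CPM under 4% PEG, against 127 and 187 CPM in isotonic medium (log2 1.33 ± 0.30, adjusted p = 0.022, and 0.0894 without 4% PEG replicate 2). It had 73.6 and 81.2 CPM under the weight in HepG2, against 60.7 and 67.5 CPM uncompressed (log2 0.27, adjusted p = 0.00451, and 0.0908 without weight replicate 2 or 0.136 without uncompressed replicate 1). Hep3B had 1 CES1 count in its 6 libraries. CES2 was not called in any compression in the main fits. Under 4% PEG it had 182 and 242 CPM, against 93.6 and 135 CPM in isotonic medium, and scaling by total counts alone called it there. TPMT, which methylates thiopurine drugs, had 32.5 and 29.8 CPM under the weight in HepG2, against 42.9 and 39.6 CPM uncompressed (log2 -0.40 ± 0.08, adjusted p = 4.33e-05). Under 4% PEG, TPMT was higher without overlap, at 77.8 and 57.4 CPM, against 36.2 and 31.2 CPM in isotonic medium. The main fit did not call that rise, while DESeq2 and the replicate block did. Of the arylamine acetyltransferases, NAT1 was not called in the main fits. It had 7.39 and 4.35 CPM under 4% PEG, against 2.97 and 1.78 CPM in isotonic medium, and scaling by total counts alone called it there. NAT2 had at most 0.920 CPM and was called higher under 4% PEG (38 counts, against 1 in isotonic medium), a call lost without 4% PEG replicate 1.

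The alcohol dehydrogenases, which oxidise ethanol, retinol and other alcohols, were called only downward in the 4 compressions. The 6 genes lie in 282 kb of chromosome 4 (chr4:99070978-99353027) in the order ADH5, ADH4, ADH6, ADH1A, ADH1B and ADH1C. In HepG2 the first 3 fell under both kinds of compression, and the class I genes ADH1A, ADH1B and ADH1C stayed at or below 0.267 CPM in every library. In Hep3B all 6 fell under 3% PEG, and the 3 class I genes fell under the weight. Of all genes tested, 9.05% were lower under 4% PEG and 20% under the weight in HepG2. In Hep3B, 8.36% were lower under the weight and 26% under 3% PEG.

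ADH4, a class II enzyme active on retinol, had 16.1 and 11.1 CPM under 4% PEG, against 46.8 and 40.9 CPM in isotonic medium (log2 -1.69 ± 0.34, adjusted p = 0.0136, and 0.0762 without 4% PEG replicate 2). It had 14.8 and 17.5 CPM under the weight in HepG2, against 52.0 and 51.7 CPM uncompressed (log2 -1.69 ± 0.10, adjusted p = 3.79e-16). Under 3% PEG it had 1.65 and 1.27 CPM, against 1.85 and 2.56 CPM in uncompressed Hep3B (log2 -0.60, adjusted p = 0.0198, and 0.225 without 3% PEG replicate 2 or 0.3 without uncompressed replicate 2). ADH6, a class V enzyme of little known function, had 21.2 and 21.0 CPM under 4% PEG, against 83.6 and 91.8 CPM in isotonic medium (log2 -2.06 ± 0.27, adjusted p = 0.00288). It had 44.1 and 47.6 CPM under the weight, against 104 and 101 CPM in uncompressed HepG2 (log2 -1.16 ± 0.07, adjusted p = 4.77e-16). In Hep3B it had 23.5 and 24.0 CPM under 3% PEG, against 30.2 and 31.0 CPM uncompressed (log2 -0.36, adjusted p = 9.67e-05). In all of these the groups did not overlap.

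ADH5, the formaldehyde-clearing class III enzyme found in most tissues, had 119.8 and 115 CPM under 4% PEG, against 335 and 371 CPM in isotonic medium (log2 -1.59 ± 0.24, adjusted p = 0.00443). It had 259.6 and 275 CPM under the weight, against 406 and 408 CPM in uncompressed HepG2 (log2 -0.61 ± 0.06, adjusted p = 4.24e-11). It had 146 and 143 CPM under 3% PEG, against 264 and 261 CPM in uncompressed Hep3B (log2 -0.86 ± 0.06, adjusted p = 2.55e-15). The class I enzyme ADH1A, an ethanol oxidase, had 2.34 and 2.99 CPM under the weight and 2.46 and 2.26 CPM under 3% PEG, against 8.10 and 7.40 CPM in uncompressed Hep3B. Both groups of compressed libraries lay below the uncompressed ones, with log2 -1.54 ± 0.19 under the weight (adjusted p = 1.22e-07) and -1.72 ± 0.19 under 3% PEG (adjusted p = 1.33e-09). ADH1B, the major ethanol-oxidising form of adult liver, had 0.499 and 0.597 CPM under the weight and 0.644 and 0.212 CPM under 3% PEG, against 1.47 and 1.72 CPM uncompressed. Its call under the weight (log2 -1.53, adjusted p = 0.00601) was lost without weight replicate 1 (0.0583) or uncompressed replicate 2 (0.0774), and the one under 3% PEG was -1.92 (adjusted p = 0.000186). ADH1C held 3 counts under the weight and 2 under 3% PEG, against 30 uncompressed, and the call under the weight was lost without weight replicate 1. DESeq2 called ADH1C in neither comparison.

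**Figure D4:**
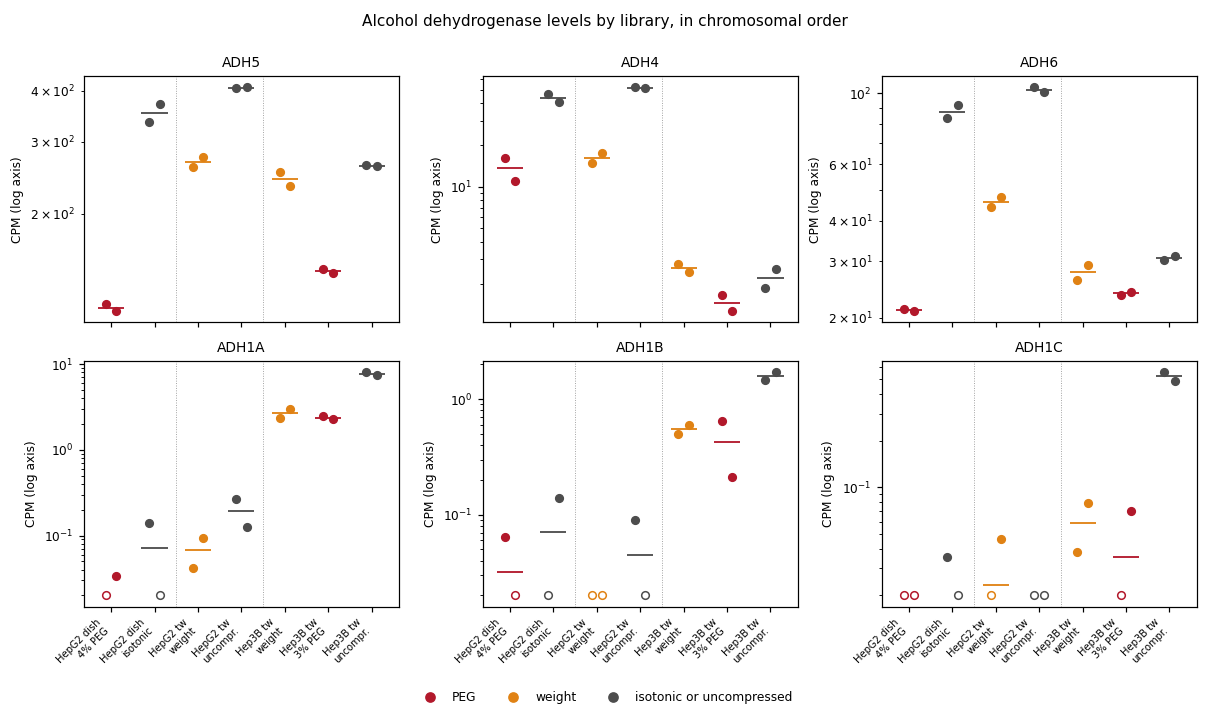
CPM on log axes in each library (points) with the group mean (line) for the 6 alcohol dehydrogenases in chromosomal order; open points at the bottom mark libraries below 0.02 CPM, and dotted lines separate HepG2 on dishes, HepG2 on transwells and Hep3B on transwells (tw). ADH5, ADH4 and ADH6 are lower in every compressed HepG2 library than in its controls, and the 3 class I genes are highest in uncompressed Hep3B, where ADH1A has 7.40 and 8.10 CPM.

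POR, the flavoprotein that passes electrons to microsomal P450 enzymes, rose under the weight in HepG2 and under 3% PEG in Hep3B. It had 314 and 336 CPM under the weight, against 258 and 256 CPM in uncompressed HepG2 (log2 0.34 ± 0.06, adjusted p = 7.09e-06). It had 67.4 and 71.1 CPM under 3% PEG and 58.7 and 60.5 CPM under the weight, against 55.6 and 58.8 CPM in uncompressed Hep3B (log2 0.28 for 3% PEG, adjusted p = 0.000179; log2 0.06 for the weight, adjusted p = 0.595). On dishes it had 159 and 318 CPM under 4% PEG, against 281 and 577 CPM in isotonic medium, and the groups overlapped (log2 -0.85 ± 0.43, adjusted p = 0.212). With a replicate block POR was called there, though the labels do not say that replicate numbers pair the libraries. Its exons are 61.3% GC, and the dish replicates differ by GC content.

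Across comparisons without libraries in common, 14 members were called both under 4% PEG and under the weight in HepG2 (60.9% of those called under 4% PEG and 63.6% of those called under the weight). Over all genes tested, 1904 were called in both (51.4% and 26.8%), and 69.6% of these moved in the same direction. Of the 14 members, 13 moved in the same direction (among them CYP24A1, CYP2S1, CYP3A5, AOX1, UGT2B10, ADH4, ADH5 and ADH6) and FMO5 in opposite directions. Both 4% PEG in HepG2 and 3% PEG in Hep3B called 16 members (69.6% and 50.0%), 13 in the same direction and UGT2B4, UGT2B10 and SULT1E1 in opposite ones, against 2142 of all genes (57.8% and 22.4%), 80.2% in the same direction. The weight in HepG2 and the weight in Hep3B had 1 called member in common (4.55% and 10.0%), CYP2J2, which moved in opposite directions, against 1786 of all genes (25.1% and 61%), 77.3% in the same direction. The weight in HepG2 and 3% PEG in Hep3B had 14 called members in common (63.6% and 43.75%), 7 in the same direction and 7 in opposite ones. Over all genes, 4540 were called in both (63.9% and 47.4%), 56% in the same direction. For 4% PEG in HepG2 and the weight in Hep3B there were 5 members (21.7% and 50.0%), 4 in the same direction. All genes had 775 in that pair (20.9% and 26.5%), 46.8% in the same direction. These overlaps were not tested.

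The difference between the weight effects of the lines was tested directly, as an interaction. It was called for 13 of the 47 tested members (27.7%), against 20.6% of all genes, with 10 higher and 3 lower in Hep3B than in HepG2 (11.2% and 9.33% of all genes). The effect on ADH4 was 0.24 in Hep3B and -1.69 in HepG2, a difference of 1.93 ± 0.22 (adjusted p = 1.56e-08). For ADH6 it was -0.15 in Hep3B and -1.16 in HepG2, a difference of 1.02 ± 0.10 (adjusted p = 8.69e-10).

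Within Hep3B, the weight was also set directly against 3% PEG. Of the 47 tested members 8 were higher and 16 lower under the weight (51.1% in all), against 49.2% of all genes (25.2% higher, 24% lower), a share near the background. CYP4F3 had 3 counts under the weight, against 315 under 3% PEG (ratio 0.0099, exact 95% interval 0.00203 to 0.0292, counting error only). CYP3A7 was 4.69-fold higher under the weight than under 3% PEG (log2 2.23 ± 0.17, adjusted p = 1.5e-13). UGT2B4 was lower under the weight, with a log2 fold change of -1.28 ± 0.06 (adjusted p = 1.32e-19), and so was AOX1, at -1.14 ± 0.15 (adjusted p = 7.87e-08). NR1I3 was lower as well (log2 -1.12 ± 0.17, adjusted p = 6.64e-07), while FMO4 was higher (log2 1.56 ± 0.18, adjusted p = 6.93e-09).

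Without compression, the lines carried different sets of these enzymes. In uncompressed Hep3B, 16 of the 47 tested members were higher and 26 lower than in uncompressed HepG2 (89.4% in all), against 71% of all genes (36.2% higher, 34.8% lower). CES1 had no count in uncompressed Hep3B, against 2996 in HepG2, which makes it 1225-fold lower with Hep3B set at a floor of 3 counts. With the same floor, NR1I2 was 154.9-fold lower (0 counts, against 379), CYP4F12 175.8-fold (0, against 430) and CYP2S1 93.6-fold (0, against 229). UGT2B10 had 0.419 and 0.596 CPM in Hep3B, against 235 and 228 CPM in HepG2. In uncompressed Hep3B, NR1I2, CES1, CYP4F12 and CYP2S1 were not detected at this depth, where 3 counts are 0.0525 CPM.

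Other genes were higher in Hep3B. ADH1A had 8.10 and 7.40 CPM in uncompressed Hep3B, against 0.267 and 0.124 CPM in HepG2 (log2 5.29 ± 0.31, adjusted p = 2.63e-17). CYP2R1 had 15.7 and 17.9 CPM, against 1.34 and 1.65 CPM (log2 3.48 ± 0.15, adjusted p = 5.81e-21). CYP3A7 had 15.6 and 14.7 CPM, against 2.05 and 1.57 CPM (log2 3.06 ± 0.18, adjusted p = 1.51e-17). The adult form CYP3A5 was lower in Hep3B (0.628 and 0.947 CPM, against 4.73 and 4.26 CPM in HepG2, adjusted p = 3.36e-11).

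**Figure D5:**
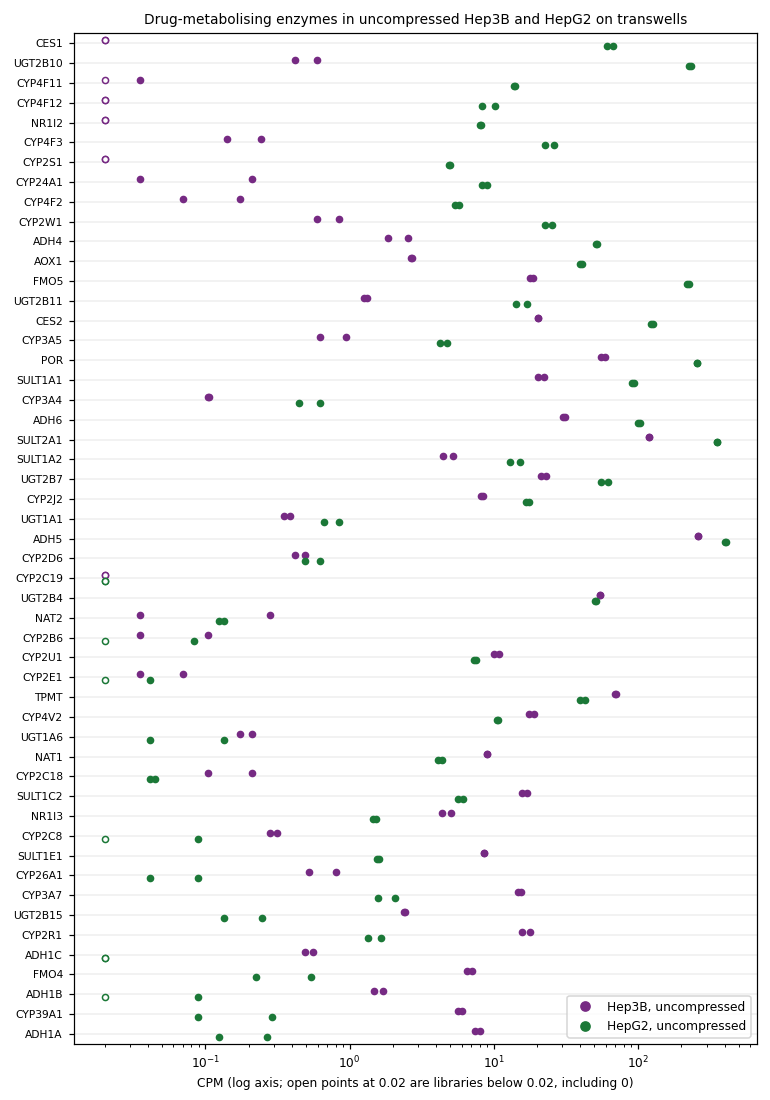
CPM on a log axis of each of the 51 genes in the 2 uncompressed Hep3B and the 2 uncompressed HepG2 transwell libraries, ordered from the lowest to the highest ratio of Hep3B to HepG2; open points at 0.02 stand for libraries below 0.02 CPM. CES1, UGT2B10, CYP4F11, CYP4F12 and NR1I2 stand at the HepG2 end, and ADH1A, CYP39A1, ADH1B and FMO4 at the Hep3B end.

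Per kilobase of exon, SULT2A1 was the highest of the 51 genes in uncompressed HepG2 on transwells (178 CPM per kilobase), followed by UGT2B10 (119.8) and ADH5 (83.6). In 4% PEG the order began with CES1 (134 CPM per kilobase) and AOX1 (70.4). In Hep3B under 3% PEG, UGT2B4 led (80.6), and without compression SULT2A1 (60.1) and ADH5 (53.9) did. With the longest transcript as the length, ADH5 came second in uncompressed HepG2 and first in uncompressed Hep3B, and AOX1 had rank 3 in 4% PEG.

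A wider list of 117 enzymes, electron donors and regulators of drug metabolism gave 78 tested genes. Of these, 11 rose and 17 fell under 4% PEG (35.9%, against 19.3% of all genes), 20 and 25 under the weight in HepG2 (57.7%, against 37%), 6 and 12 under the weight in Hep3B (23.1%, against 15.2%), and 24 and 28 under 3% PEG (66.7%, against 49.8%). Their median log2 fold changes were -0.21, -0.04, -0.06 and 0.01 in that order.

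Under 4% PEG, the genes with the smallest p among risers were MAOB, a monoamine oxidase (log2 1.71 ± 0.27, adjusted p = 0.00533), SULT1B1, a thyroid hormone sulfotransferase (log2 3.51 ± 0.55, adjusted p = 0.00556), and the cytochrome b5 reductase CYB5R1 (log2 1.88 ± 0.37, adjusted p = 0.0124). The genes with the smallest p among fallers were HLF, a circadian PAR bZIP factor (log2 -3.25 ± 0.28, adjusted p = 0.000753), the bile acid receptor NR1H4 (log2 -3.68 ± 0.37, adjusted p = 0.00116) and the coactivator PPARGC1A (log2 -2.71 ± 0.29, adjusted p = 0.00136). Under the weight in HepG2, the sulfotransferase SULT1C4 and the esterase CES3 rose (log2 1.18 and 0.82, adjusted p at most 4.28e-09). Cytochrome b5 type B (CYB5B), the quinone reductase NQO1 and the bile acid-responsive repressor NR0B2 fell (log2 -0.72, -0.60 and -0.71, adjusted p at most 6.43e-10).

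Under the weight in Hep3B, the retinoic acid hydroxylase CYP26B1, the b5 reductase CYB5R3 and the oxysterol receptor NR1H3 rose (log2 0.59, 0.28 and 0.36). Each of these 3 calls was lost without 1 of the libraries: without weight replicate 2 for CYP26B1 (adjusted p = 0.0561) and NR1H3 (0.0596), and without uncompressed replicate 1 for CYB5R3 (0.0634). The flavin monooxygenase FMO1, the glucocorticoid receptor NR3C1 and the monoamine oxidase MAOA fell (log2 -1.13, -0.51 and -0.42, adjusted p at most 0.000143). Under 3% PEG, UGDH, which makes the sugar donor of glucuronidation, rose to 748 CPM on average, against 219.8 CPM uncompressed (log2 1.77 ± 0.06, adjusted p = 2.61e-23). The factor CEBPB and the heme oxygenase HMOX1 rose as well (log2 2.17 and 2.01), and the carbonyl reductase CBR4, FMO1 and cytochrome b5 (CYB5A) fell (log2 -1.53, -2.49 and -0.99).

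RXRA, the partner of both receptors, was not called under 4% PEG (log2 -0.74 ± 0.38, adjusted p = 0.213), rose under the weight in HepG2 (0.22 ± 0.06, adjusted p = 0.00347) and fell in Hep3B under the weight (-0.23 ± 0.06, adjusted p = 0.00531) and under 3% PEG (-0.62 ± 0.06, adjusted p = 3.85e-11). HNF4A, a master regulator of hepatocyte genes, was not called under 4% PEG (log2 0.10 ± 0.27, adjusted p = 0.842), with 271 and 316 CPM, against 226 and 323 CPM in isotonic medium. It fell under the weight in HepG2 (-0.32 ± 0.05, adjusted p = 1.21e-05), rose under 3% PEG in Hep3B (0.48 ± 0.05, adjusted p = 2.31e-09) and was not called under the weight in Hep3B (adjusted p = 0.562). AHR, the aryl hydrocarbon receptor, rose under the weight in HepG2 (0.77 ± 0.10, adjusted p = 5.67e-05), fell under the weight in Hep3B (-0.44 ± 0.09, adjusted p = 0.00689) and was not called under either PEG.

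Other markers moved beside these results. The summed hepatocyte markers had 34166 to 35439 CPM in 4% PEG, against 127681 to 128279 CPM in isotonic medium, and 31651 to 31760 CPM in 3% PEG, against 46729.8 to 49450.1 CPM in uncompressed Hep3B. Under the weight they overlapped with uncompressed cells in HepG2 and were higher in Hep3B (51091 to 53454 CPM). Single hepatocyte markers did not all move with these sums. Under the weight in Hep3B, TF had 7418 and 8783 CPM, against 4555 and 4534 CPM uncompressed. ALB had 26884 and 26832 CPM there, against 27627 and 27519 CPM, and FGB 66.6 and 71.8 CPM, against 108 and 112 CPM. Under 4% PEG, APOA2 overlapped with isotonic medium, at 2605 and 3776 CPM, against 2102 and 2836 CPM. Of the 4 bile duct markers, KRT19 had 465 and 625 CPM in 4% PEG, against 24.7 and 51.4 CPM in isotonic medium, while SOX9 had 260.5 and 216 CPM, against 397 and 359 CPM, EPCAM had 177 and 129 CPM, against 222 and 186 CPM, and KRT7 was at or near 0. Their sum was 903 to 969.8 CPM in 4% PEG, against 596 to 643 CPM in isotonic medium. It was 843 to 846 CPM under the weight, against 548 to 561 CPM in uncompressed HepG2. Bile duct markers summed to 761 to 797 CPM under the weight and 663 to 693 CPM under 3% PEG, against 907 to 911 CPM in uncompressed Hep3B. The 4 endothelial markers summed to at most 14.9 CPM and the 4 fibroblast and stellate markers to at most 54.7 CPM in any library. The 4 leukocyte markers summed to 496 to 569 CPM in 4% PEG, against 3778 to 4625 CPM in isotonic medium, nearly all of it LYZ, with PTPRC and CD3E at or below 0.272 CPM in every library. The mitochondrial share of counts was 7.34% and 5.05% in 4% PEG, against 1.87% and 0.999% in isotonic medium. Their part in the results was not tested.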

How the data were processed

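RNA was sequenced from 14 libraries in 7 groups, and the deposited table holds raw counts of reads per gene made by the authors. STAR, DESeq2 and GRCh38 (hg38) are named in the submitters' processing notes; neither the counting tool nor its use of strand or annotation release is named in them. Genes were matched by name, and GENCODE 29 gave coordinates and exon lengths. In R 4.3.3, edgeR 4.0.16 (limma 3.58.1) fitted quasi-likelihood models to the counts, separately for the 4 dish libraries (2 residual degrees of freedom) and the 10 transwell libraries (5), with TMM scaling and filterByExpr (minimum count 10) over all 14, which left 19232 genes. P-values were adjusted by Benjamini-Hochberg over all genes tested, with a threshold of 0.05. The standard error of a log2 fold change was derived from its F statistic. Fits were tested on simulated data.

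Members are given per library where called in a compression and at a mean of 1 CPM or more in 1 of the groups compared, plus NR1I2, NR1I3 and POR; pathway genes, up to 3 per direction by smallest p at 5 CPM or more, plus RXRA, AHR and HNF4A; some items the rule names are not reported here. The members and lists were chosen with earlier results of these data known. Alternatives were other scalings, filters, sample sets, a replicate block, a minimum fold change, DESeq2 1.42.0 and leaving out each library. Intervals and floors cover counting error only.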

Additional observations from a re-analysis of the deposited data

Results flagged for a closer look

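The effect of the weight differed between Hep3B and HepG2 for 13 members, by the interaction term of the transwell fit (edgeR's quasi-likelihood test, Benjamini-Hochberg adjusted over all genes); each value is the log2 effect in Hep3B minus that in HepG2. Among alcohol dehydrogenases the difference was 1.93 for ADH4 (adjusted p = 1.56e-08), 1.02 for ADH6 (8.69e-10) and 0.50 for ADH5 (7.13e-06). For glucuronosyltransferases it was 0.69 for UGT2B4 (1.54e-07) and 1.36 for UGT2B10 (0.00374). For sulfotransferases it was 0.68 for SULT1A1 (8.54e-06), 0.84 for SULT1A2 (0.00257) and 0.55 for SULT1C2 (0.0166). It was 0.72 for CYP2J2 (0.000294) and 0.33 for TPMT (0.0178). It was negative for AOX1 (-0.84, adjusted p = 0.00109), CYP24A1 (-4.06, 0.00321) and POR (-0.28, 0.0121). CYP24A1 rests on 3 counts under the weight and 7 uncompressed in Hep3B, and without uncompressed Hep3B replicate 2 it was -2.39 (adjusted p = 0.498). UGT2B10 without Hep3B weight replicate 1 was 0.96 (adjusted p = 0.191). The calls for TPMT (adjusted p from 0.061 to 0.131 without 1 of 4 libraries in turn, 0.0858 by DESeq2), SULT1C2 (0.0503 to 0.111 without 1 of 3, 0.068 by DESeq2) and POR (0.0569 to 0.0916 without 1 of 3) were lost as well.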

How the results depend on the processing

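No called change of a named member reversed its direction under any alternative run, while directions of changes not called were not checked. RLE scaling, no low-count filter and fits of only the groups compared left every count within 1.5 times. Scaling by total counts alone called 3147 of all genes higher and 1112 lower under 4% PEG. With all 14 libraries in 1 fit, all genes called higher and lower were 4590 and 4421 (4% PEG), 1038 and 806 (weight, HepG2), 169 and 34 (weight, Hep3B), 2111 and 2212 (3% PEG), 2261 and 2185 (weight against 3% PEG), and 158 and 206 (interaction). Members in that fit were 19 higher under 4% PEG, 2 higher and 4 lower under the weight in HepG2, 0 higher and 1 lower under the weight in Hep3B, 7 higher under 3% PEG, 8 lower for weight against 3% PEG, and 2 higher and 0 lower for the interaction. A minimum log2 fold change of 1 (glmTreat) gave, for all genes, 885 and 616 (4% PEG), 362 and 44 (weight, HepG2), 74 and 1 (weight, Hep3B), 557 and 654 (3% PEG), 807 and 449 (weight against 3% PEG), 2936 and 2797 (line), and 58 and 131 (interaction). For members it gave 5 lower (4% PEG), 1 higher and 1 lower (weight, HepG2), 0 and 0 (weight, Hep3B), 7 higher and 5 lower (3% PEG), 3 higher and 5 lower (weight against 3% PEG), and 1 higher and 0 lower (interaction).

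For the weight in Hep3B, DESeq2 called 926 genes and 2 members lower (it gave ADH1B no adjusted p), and a filter of 5 CPM in 2 libraries left 3 members lower. Leaving out each library in turn gave, for that comparison, 839 to 1220 genes higher, 618 to 1972 lower, 2 to 5 members higher and 2 to 4 lower, and 1 to 5 members lower for the interaction. The lone library of an arm was then assumed to vary like the others. The cause of these shifts was not tested.

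The labels do not say that replicate numbers pair the libraries. The replicate differences correlated at 0.633 between the dish groups and at -0.0777 to 0.140 between all other pairs. A replicate block called 5736 genes higher and 5522 lower and 20 members higher under 4% PEG, while UGT2B10 missed the threshold (adjusted p = 0.159). Members called with the block and not without it were POR, CYP2J2, TPMT, CYP4V2, CYP2U1, CYP3A7, NAT1, CYP4F2, CYP4F3, CYP4F11, CYP4F12, CES2, SULT1A1 and SULT1A2. With 2 libraries per group, members below about 1 CPM, most CYP2C and CYP4F genes in Hep3B among them, are limited by depth.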

Other observations

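Untreated HepG2 was grown on both surfaces, which no comparison of the study joins, so values are given without a test. Uncompressed transwell cultures averaged 51.2 CPM of UGT2B4, and isotonic dish cultures 95.2 CPM. CES1 averaged 64.1 CPM on transwells and 157 CPM on dishes, and SULT2A1 354 CPM on transwells and 481 CPM on dishes. UGT1A1 averaged 0.754 CPM on transwells and 3.24 CPM on dishes, and FMO5 223 CPM on transwells and 369 CPM on dishes. Surface, culture time and sequencing run cannot be told apart here.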
